A study of Mus musculus with 20 samples.

Results

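Anti-CTLA-4 was given alone or with other agents to mice bearing SCCVII tumors, and its effect on the tumor transcriptome was measured here across the whole factorial part of the series. The comparison set 8 libraries from tumors treated with anti-CTLA-4 against 8 from tumors without it, which are 16 of the 20 libraries of the series. SCCVII is a squamous cell carcinoma line that was grown under the skin of immunocompetent C3H/HeOuJ mice. The 8 groups hold 2 libraries each, replicates A and B, and cover every combination of 3 agents that were each given or left out. Without anti-CTLA-4 they are control, APG-157, Anti-PD-1 and APG-157-plus-anti-PD-1. With anti-CTLA-4 they are Anti-CTLA-4, APG-157-plus-anti-CTLA-4, Anti-PD-1-plus-anti-CTLA-4 and the combination of all 3 agents, called the triple combination. APG-157 is a botanical preparation that contains curcumin and was mixed into the chow, and the antibodies were injected into the peritoneum. The combination of the other agents, namely none, APG-157, anti-PD-1 or both, is called the setting below. Each of the 4 settings holds 2 libraries with and 2 without anti-CTLA-4. The labels give no age of the mice, and they do not tell if both libraries of a group are from different tumors; each p-value therefore reflects the spread among libraries, which may be technical. The study describes tumor tissue from APG-157-plus-anti-CTLA-4 as scarce, with a single small tumor left for some of its other assays, and whether both libraries of that group came from the same tumor is not told. The 4 libraries of the groups that received anti-CD8 were outside the comparison.

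CTLA-4 is an inhibitory receptor on activated T cells and on regulatory T cells. It binds CD80 and CD86 on antigen-presenting cells more tightly than the costimulatory receptor CD28 does, and so holds back T cell priming. Antibodies that block it are used to raise T cell responses against tumors, and some of them also deplete regulatory T cells, which carry much CTLA-4 on their surface.

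Library totals lay between 43.9 and 70.1 M counts (M, 1e+06), and neither the total (exact permutation test within settings, p = 0.83), the mitochondrial share (p = 0.69) nor the share of the 10 highest genes (p = 0.15) differed detectably between the arms. Markers of stratified squamous epithelium were almost absent: 8 of 18, Krt5 and Krt6a among them, had too few counts to be tested, and Krt14 was at 0 to 0.292 CPM (counts per 1e+06, with library sizes scaled by TMM). The simple epithelial keratin Krt18 was at 557 to 1253 CPM and the mesenchymal filament Vim at 3937 to 5962 CPM. The 2 libraries of APG-157-plus-anti-CTLA-4 stood apart from the other pairs. They varied between each other by 4.22% (biological coefficient of variation), and the pairs of the other 7 groups by 20.7% to 45.9%, and they differed by more than counting noise (chi-square per degree of freedom 11.0). That measure cannot tell separate tumors from repeated preparations of the same tumor. The pair was counted as 2 libraries, and the counts of calls for the main effect and beside APG-157 are also given with the pair summed as 1 sample.

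Of 19020 genes tested, 71 (0.373%) were called higher and 45 (0.237%) lower at an adjusted p under 0.05 in edgeR's quasi-likelihood test (0.61% together, against 12.5% at an unadjusted p under 0.05), with APG-157 and anti-PD-1 as further terms of the model. With the closely matched pair summed as 1 sample, 18 were called higher and 4 lower. The median log2 fold change of the called genes was 0.81 for higher and −0.59 for lower ones, and 28 and 4 of them changed by more than 1 on the log2 scale. The transcription factor gene Fosb, the myeloid receptor genes Lilr4b and Clec4e, the scaffold gene Wwc1 and the cytokine gene Tnf were among the higher genes, and Sertad4, the basement membrane gene Fras1, Fam180a and the collagen gene Col5a2 among the lower ones. In these bulk samples, fewer cells of a type and less RNA per cell cannot be told apart. Of all genes tested, 9697 had a positive and 9323 a negative log2 fold change. At an unadjusted p under 0.05, 7.11% were higher and 5.39% lower. The gene lists below can be read against these shares.

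The number of called genes turned on single libraries. The 18 higher and 4 lower genes called with the APG-157-plus-anti-CTLA-4 libraries summed were all also called with them kept apart. Fosb, Lilr4b, Wwc1, Clec4e, Tnf, Sertad4, Fras1 and Fam180a were among them, whereas Col5a2, Pdgfrb, Ptgs2, Hal, Clec4d, Ido1, Pdcd1lg2, Il12rb2, Mmp9, Pdpn and Bcl2l1 were not. Without replicate A or without replicate B of that group, 3 genes were called higher and 0 lower, and without replicate B of Anti-PD-1-plus-anti-CTLA-4 the counts were also 3 and 0. The counts were 4 and 2 without replicate B of Anti-PD-1, 15 and 5 without replicate A of control and 40 and 24 without replicate B of control. They were 28 and 14 without replicate B of APG-157, 25 and 25 without replicate A of Anti-PD-1 and 24 and 17 without replicate B of APG-157-plus-anti-PD-1. They were 45 and 19 without replicate A of Anti-CTLA-4, 31 and 26 without replicate A of Anti-PD-1-plus-anti-CTLA-4 and 34 and 30 without replicate A of the triple combination. In contrast, 292 and 106 genes were called without replicate B of Anti-CTLA-4, and 273 and 142 without replicate B of the triple combination. Fosb, Lilr4b and Wwc1 were the only genes called in all 16 fits that left out 1 library, and 15 higher and 5 lower genes were called in at least 12 of them. Even these 3 genes were not called once all libraries of the APG-157 setting, or all of the anti-PD-1 setting, were left out. With DESeq2, 442 genes were called higher and 281 lower, including all 71 and all 45.

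**Figure D1:**
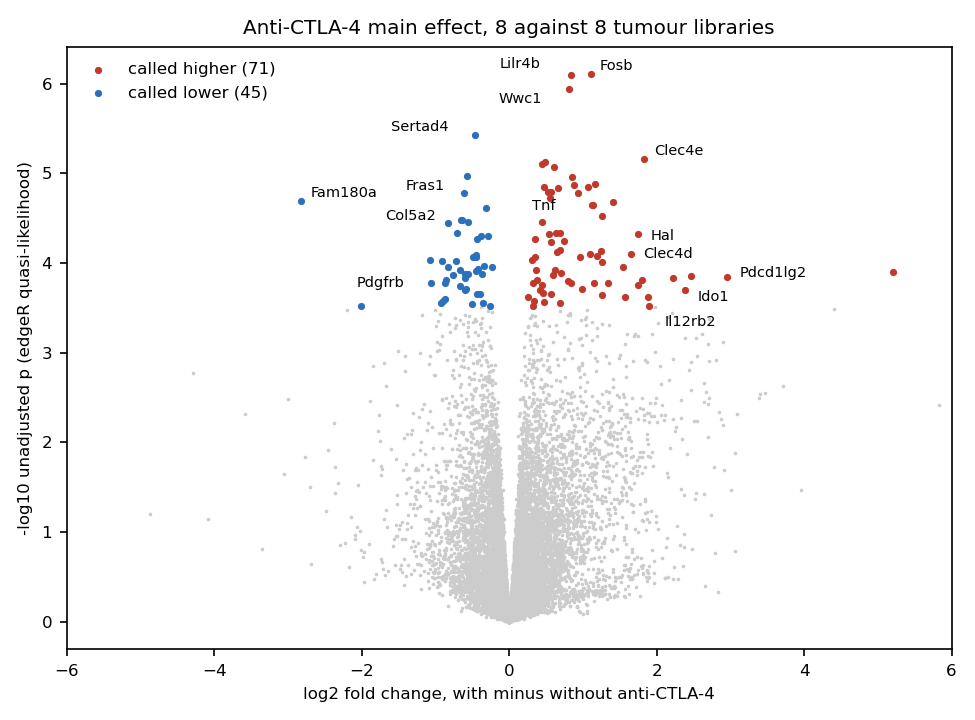
Change of each tested gene with anti-CTLA-4 (x axis, log2 fold change with minus without) against its unadjusted p from edgeR (y axis, −log10), with 71 genes called higher in red, 45 called lower in blue and the other genes in grey. Fosb, Lilr4b and Wwc1 have the lowest p, and 5 uncalled genes beyond a log2 fold change of 6 in size lie outside the plot.

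The direction of the called genes was shared by the settings. All 71 higher genes had a positive log2 fold change in each of the 4 settings, and all 45 lower genes a negative one, against 9.55% and 8.85% of all genes tested. The main effect was fitted to the libraries of all 4 settings at once, so a shared sign is in part a property of the calls. Among the higher genes the median log2 fold change was 0.58 with no other agent, 0.92 beside APG-157, 1.03 beside anti-PD-1 and 0.52 beside both, and among the lower genes it was −0.57, −0.75, −0.61 and −0.39. The 8 libraries with anti-CTLA-4 lay entirely above the 8 without it for 18 of the 71 higher genes, against 23 (0.121%) of all genes tested, and entirely below for 8 of the 45 lower genes, against 14 (0.0736%). The genes were called for a difference between these same libraries, so this separation is also in part a property of the calls.

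Fosb (ENSMUSG00000003545.4), an immediate early gene that encodes a partner of Jun in the AP-1 transcription factor, had the lowest p. Without anti-CTLA-4 it was at 2.40 and 3.65 CPM in control, 3.24 and 2.60 in APG-157, 2.66 and 2.28 in Anti-PD-1 and 3.20 and 2.59 in APG-157-plus-anti-PD-1 (replicates A and B). With anti-CTLA-4 it was at 5.39 and 9.42 CPM alone, 6.33 and 6.21 beside APG-157, 5.28 and 6.70 beside anti-PD-1 and 5.09 and 4.95 beside both. Every library with anti-CTLA-4 therefore lay above every library without it. The log2 fold change was 1.11 (standard error, SE, 0.14, edgeR adjusted p = 0.00727), with 1.29, 1.10, 1.28 and 0.79 in the 4 settings. Of the 12 immediate early genes tested it was the only one called, and the median of the list was 0.12. At an unadjusted p under 0.05, 4 of them were higher and 0 lower, against 7.11% and 5.39% of all genes. Atf3 (0.90) and Zfp36 (0.30) were not called, and Jun, the member with the highest level, had a log2 fold change of 0.09.

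Lilr4b (ENSMUSG00000112023.2) and Lilrb4a encode closely related receptors of macrophages and other myeloid cells, and reads of such near-identical copies may have been split between them. Lilr4b was at 52.2 to 73.4 CPM (median 69.1) without anti-CTLA-4 and at 78.8 to 149 CPM (median 131) with it. The 2 libraries treated with anti-CTLA-4 alone, at 78.8 and 84.9 CPM, were the lowest of the treated arm, and the arms did not overlap. Its log2 fold change was 0.83 (SE 0.10, edgeR adjusted p = 0.00727), and that of Lilrb4a was 0.60 (SE 0.09, edgeR adjusted p = 0.0166).

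Clec4e, which encodes Mincle, a pattern receptor for mycobacterial glycolipids and dead cells, was at 3.83 to 12.9 CPM (median 5.97) without anti-CTLA-4. With anti-CTLA-4 it was at 8.73 and 21.8 CPM alone, 27.2 and 30.5 beside APG-157, 24.6 and 29.9 beside anti-PD-1 and 22.2 and 19.0 beside both. Replicate A of Anti-CTLA-4 was thus the only treated library inside the range of the other arm. Clec4e rose by 1.83 on the log2 scale (SE 0.27, edgeR adjusted p = 0.0166). Its neighbor and partner in signaling, Clec4d, was chosen after its values were seen and ran from 6.18 to 16.3 CPM without and from 20.9 to 83.7 CPM with anti-CTLA-4, a log2 fold change of 1.65 (SE 0.30, edgeR adjusted p = 0.0311).

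Tnf, the inflammatory cytokine, was at 3.03 to 6.53 CPM (median 4.41) without anti-CTLA-4 and at 5.53 to 10.8 CPM (median 8.58) with it. In 7 of 8 treated libraries it lay above every untreated library, and the remaining treated library was replicate B of the triple combination. The log2 fold change was 0.93 (SE 0.15, edgeR adjusted p = 0.0166), and by setting it was 1.05, 1.19, 1.11 and 0.33. Ptgs2, which encodes the prostaglandin synthase COX-2, rose by 0.99 (SE 0.20, edgeR adjusted p = 0.0398), from a median of 14.4 to a median of 27.9 CPM. The call of Ptgs2, but not its direction, did not hold once the letter A or B was a block. The noncoding gene Ptgs2os2, which lies near Ptgs2, was at 1.25 to 2.36 CPM without and 2.88 to 3.89 CPM with anti-CTLA-4, a log2 fold change of 0.85 (SE 0.13), and its arms did not overlap. Of the 17 inflammatory cytokines and NF-kB targets tested, Tnf and Ptgs2 were called, 14 had a positive log2 fold change, and the list median was 0.13. At an unadjusted p under 0.05, 6 of them were higher and 0 lower, against 7.11% and 5.39% of all genes. Icam1, which was not called, had a log2 fold change of 0.65. Among the subunits, Nfkb1, Rela and Relb had log2 fold changes of −0.03, 0.05 and 0.01, and Nfkb2 and Rel are not reported here.

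Further higher genes, chosen after their values were seen and not as members of a list, were Fpr2 (1.14), a receptor for formylated peptides, Cebpb (0.66), a transcription factor of myeloid cells, Lgals3 (0.74), which encodes galectin-3, Hal (1.75), the histidine-degrading enzyme histidase, and Srgn (0.79), the proteoglycan core of secretory granules. These are log2 fold changes, each with an adjusted p under 0.05 from edgeR. Hal was at 14.2 to 38.2 CPM without and 38.9 to 143 CPM with anti-CTLA-4, and Srgn at 89.2 to 114 against 122 to 306 CPM, so neither overlapped between the arms. By the rule for named genes, Crem, a cyclic AMP-responsive transcription factor, rose by 0.48 (SE 0.07), and its 8 treated libraries, at 11.1 to 14.3 CPM, lay above the other 8, at 8.12 to 10.3 CPM. Dusp10, a phosphatase of stress kinases, rose by 0.66, Clcf1, a cytokine of the interleukin-6 family, by 0.88, Dok2, an adaptor in hematopoietic cells, by 0.57, and Slc25a37, a mitochondrial iron importer, by 0.45. The remaining named higher genes were Wwc1 (0.81), which encodes KIBRA, a scaffold upstream of Hippo signaling, Styk1 (1.16), Gm10419 (1.07), Rgs17 (0.48) and Gprc5a (0.52), each on the log2 scale with an adjusted p of 0.0166 or lower from edgeR. Wwc1 was at 5.58 to 7.95 CPM in untreated and 9.55 to 15.2 CPM in treated libraries.

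**Figure D2:**
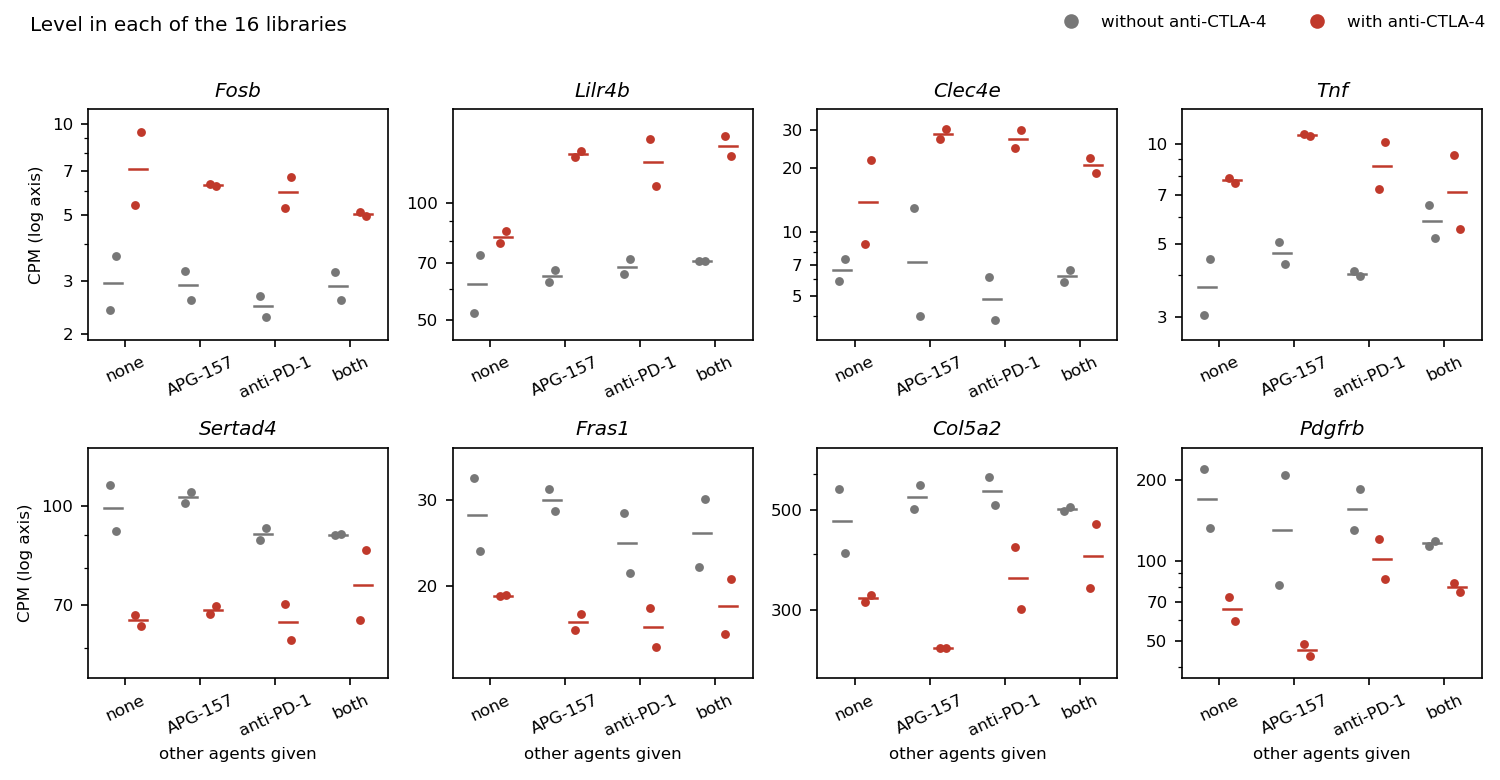
CPM (y axis, log scale) of 4 higher genes (top row) and 4 lower genes (bottom row) in each of the 16 libraries, by the other agents given (x axis), in grey without and in red with anti-CTLA-4; bars are geometric means of the 2 libraries. Fosb, Lilr4b, Sertad4 and Fras1 show no overlap between the 8 red and the 8 grey points, while Clec4e, Tnf, Col5a2 and Pdgfrb overlap in 1 or more libraries.

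Sertad4, which encodes a protein with a SERTA domain, was at 88.4 to 108 CPM (median 91.8) without and at 61.7 to 85.2 CPM (median 67.8) with anti-CTLA-4, and the arms did not overlap. It fell by 0.47 on the log2 scale (SE 0.07, edgeR adjusted p = 0.0166). Fras1, which encodes a basement membrane protein, was at 21.2 to 33.1 CPM without and 15 to 20.7 CPM with anti-CTLA-4, a log2 fold change of −0.62 (SE 0.10, edgeR adjusted p = 0.0166). Col5a2, a chain of the fibril-forming type V collagen, was at 557 and 400 CPM in control, 501 and 568 in APG-157, 591 and 513 in Anti-PD-1 and 497 and 507 in APG-157-plus-anti-PD-1. With anti-CTLA-4 it was at 313 and 324 CPM alone, 247 and 247 beside APG-157, 414 and 302 beside anti-PD-1 and 336 and 465 beside both, so that 6 of 8 treated libraries lay below every untreated library. It fell by 0.66 on the log2 scale (SE 0.11, edgeR adjusted p = 0.0222).

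Pdgfrb, the receptor for platelet-derived growth factor on pericytes and fibroblasts, fell by 1.06 on the log2 scale (SE 0.21, edgeR adjusted p = 0.0365), from 80.8 to 220 CPM (median 131) to 43.9 to 120 CPM (median 74.8). Its call did not hold with that block either. Bmp1, a protease that processes procollagens, fell by 0.45, and Itgb5, an integrin chain that binds vitronectin, by 0.43. Fam180a had the largest fall of the 15 lower genes named by rule, from 0.697 to 3.94 CPM without to 0.0586 to 0.677 CPM with anti-CTLA-4, a log2 fold change of −2.83 (SE 0.47, edgeR adjusted p = 0.0179). It was low in every library. Slco2b1, an organic anion transporter, fell by 0.83, Nuak1, a kinase of the AMPK family, by 0.55, Phldb2 by 0.71, Cdc42ep1 by 0.64, Il1rl2, a receptor for interleukin-36, by 0.57, Pcdh18 by 0.38, Snn by 0.31, Slc29a1, a nucleoside transporter, by 0.29 and 4931406P16Rik by 0.45. Further lower genes, chosen after their values were seen and not as members of a list, were Fgf2 (−0.87), its feedback inhibitor Spry1 (−0.91), the Hedgehog transducer Smo (−0.36) and the guidance receptor Robo2 (−0.84), given as log2 fold changes with an adjusted p under 0.05 from edgeR. Spry1 was at 29.1 to 50.3 CPM without and 13.2 to 28.4 CPM with anti-CTLA-4, with no overlap.

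**Figure D3:**
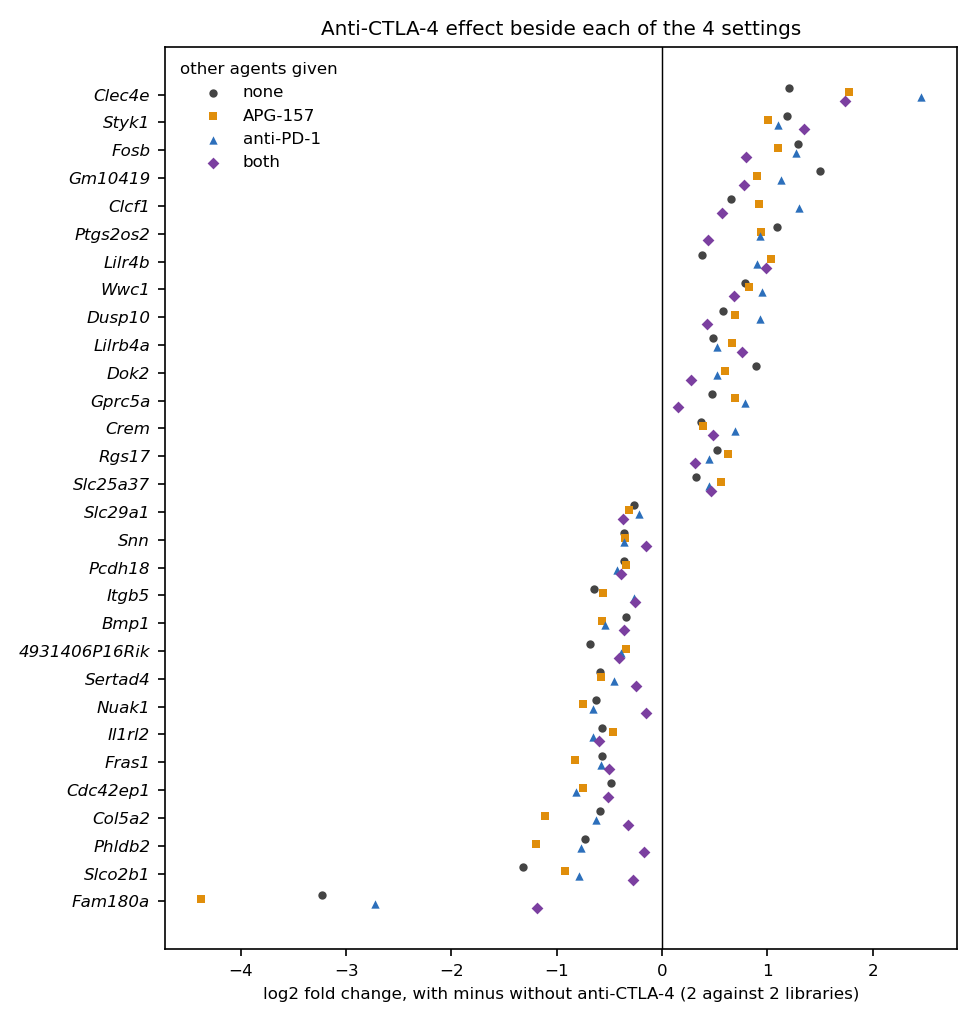
Log2 fold change with anti-CTLA-4 (x axis) of the 15 higher and 15 lower named genes (y axis), computed in each of the 4 settings from 2 against 2 libraries; the symbol and color give the setting. Every point of the 15 higher genes lies right of 0 and every point of the 15 lower genes left of it, and Gprc5a, at 0.15, and Nuak1, at −0.15, come close to 0 beside both other agents.

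All 22 collagens and matrix genes tested had a negative log2 fold change, with a median of −0.49 against 0.00 for all genes tested. Col5a2 was called, and 16 of the 22 had an unadjusted p under 0.05 and a negative sign, against 5.39% of all genes. The study had reported collagen and extracellular matrix gene groups as lower in APG-157-plus-anti-CTLA-4 than in control from these same libraries. The list is therefore not independent evidence of a direction. Col14a1 (−1.0, SE 0.21, edgeR adjusted p = 0.0525) and Col5a1 (−0.60, SE 0.13, edgeR adjusted p = 0.0549) missed the threshold, although the arms did not overlap for Col14a1, at 52.4 to 126 CPM without and 17.7 to 51.4 CPM with anti-CTLA-4. Fn1, the fibronectin gene with the highest level in the list, had a log2 fold change of −0.21 (edgeR adjusted p = 0.70). The mean log2(CPM + 0.1) of the list was 7.63 to 8.62 without and 6.45 to 8.02 with anti-CTLA-4, and its 2 lowest values, both 6.45, were those of APG-157-plus-anti-CTLA-4. Among 15 fibroblast genes Pdgfrb was called lower and Pdpn, a mucin-like membrane protein of fibroblasts and lymphatic vessels, was called higher (0.45), with a list median of −0.29. The 14 endothelial genes had a median of −0.22, 11 of them negative, and 0 were called by edgeR (2 at an unadjusted p under 0.05 and lower). The red blood cell genes, 7 of 7 negative, had a median of −1.08 with 0 called, and their level had a median of 1.97 with and 2.99 without anti-CTLA-4. The part of blood or vessel content in the other results was not tested.

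Genes of T cells, of cytotoxic cells and of interferon gamma were all at a positive log2 fold change, but almost none passed the test. All 22 T cell genes were positive, with a median of 1.33, and 20 of them had an unadjusted p under 0.05, against 7.11% of all genes, yet 0 were called. The lowest p in this list was that of Trbc2, a constant region of the T cell receptor (0.54, SE 0.15, edgeR adjusted p = 0.133), and the highest log2 fold change was that of Cd8a at 1.66. Skap1, an adaptor that acts downstream of the receptor, had a log2 fold change of 1.08. The 22 cytotoxic effector genes were also all positive, with a median of 1.55, 18 at an unadjusted p under 0.05 and 0 called. Some members, Gzma, Gzmb and Prf1 among them, were named by the study from these same libraries, so the list is not independent evidence of a direction.

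Gzmb, which encodes the protease granzyme B, shows the spread behind these values. Without anti-CTLA-4 it was at 3.06 and 5.01 CPM in control, 15.4 and 4.82 in APG-157, 11.3 and 4.96 in Anti-PD-1 and 13.9 and 6.70 in APG-157-plus-anti-PD-1. With anti-CTLA-4 it was at 34.7 and 6.95 CPM alone, 32.8 and 33.6 beside APG-157, 82.6 and 40.4 beside anti-PD-1 and 53.2 and 13.4 beside both. In 2 treated libraries, replicate B of Anti-CTLA-4 and replicate B of the triple combination, it stayed within the range of the other arm. The log2 fold change was 2.20 (SE 0.46, edgeR adjusted p = 0.054), and those of Prf1, the pore-forming protein, and Cst7 were 2.16 and 1.36 (adjusted p = 0.0551 and 0.057 from edgeR). The mean level of the T cell list of Anti-CTLA-4 was 3.78 (replicate A) and 0.59 (replicate B), and 3.79 and 1.38 in the triple combination, on the log2(CPM + 0.1) scale. Among the 16 fits that left out 1 library, those without either of these 2 replicates B called the most genes in the main effect.

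**Figure D4:**
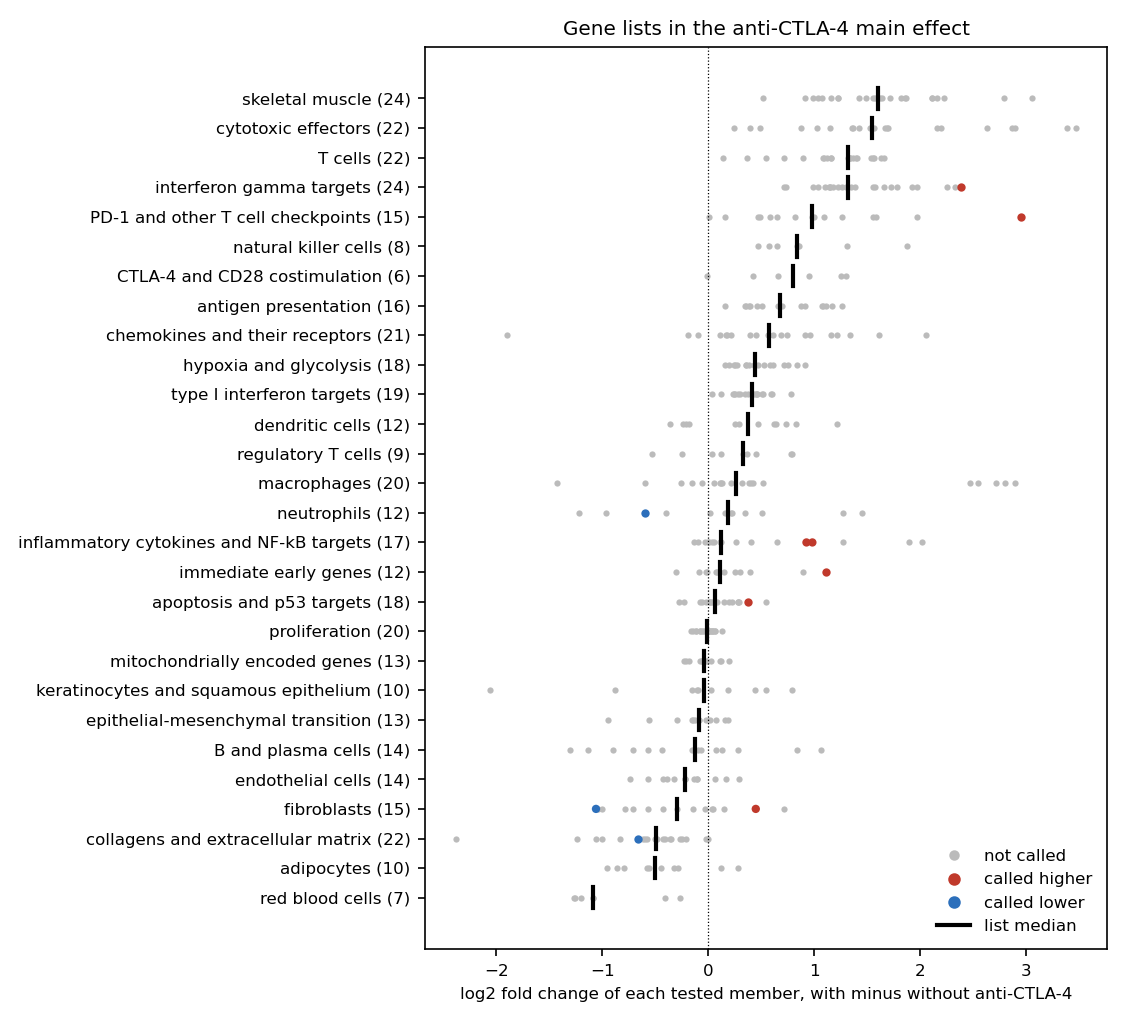
Log2 fold change with anti-CTLA-4 (x axis) of every tested member of the 28 gene lists (y axis, number tested in parentheses); grey points are not called, red and blue points are called higher and lower, and black bars are list medians. The T cell, cytotoxic and interferon gamma lists lie wholly right of 0 with 0, 0 and 1 genes called, and the matrix list lies wholly at or left of 0 with 1 gene called.

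Interferon gamma targets had the same pattern. All 24 were positive, with a median of 1.32, against 9697 positive of the 19020 genes tested. Of the 24, 23 had an unadjusted p under 0.05, against 7.11% of all genes. Only Ido1, which encodes the tryptophan-degrading enzyme IDO, was called (2.38, SE 0.49, edgeR adjusted p = 0.0398). It was low throughout, at 0.0674 to 0.558 CPM without and 0.0709 to 2.89 CPM with anti-CTLA-4, and 6 of 8 treated libraries lay above every untreated library. Socs1, a feedback inhibitor of interferon signaling, had a log2 fold change of 0.99 (edgeR adjusted p = 0.0722) and the chemokine gene Cxcl11 of 1.56 (adjusted p = 0.137). The 19 type I interferon targets were all positive with a median of 0.42, 4 at an unadjusted p under 0.05 and 0 called. The 16 antigen presentation genes were also all positive, with a median of 0.68, 6 at an unadjusted p under 0.05 and 0 called, and B2m, the light chain of MHC class I, had a log2 fold change of 0.36 (edgeR adjusted p = 0.30).

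Among checkpoint genes, Pdcd1lg2, which encodes PD-L2, a ligand of PD-1, was called. It was at 0.0337 to 0.592 CPM (median 0.335) without anti-CTLA-4. With anti-CTLA-4 it was at 4.94 and 0.337 CPM alone, 1.51 and 1.46 beside APG-157, 5.82 and 4.22 beside anti-PD-1 and 3.83 and 0.213 beside both. The 2 treated libraries within the untreated range were again both replicates B of Anti-CTLA-4 and of the triple combination. Its log2 fold change was 2.95 (SE 0.58, edgeR adjusted p = 0.0355). It was not called when the 8 group means were averaged over the settings, and neither were Ido1 and Il12rb2. Pdcd1lg2 was called in 3 of the 16 fits that left out 1 library, Ido1 in 2 and Il12rb2 in 3. The other PD-1 ligand, Cd274, had a log2 fold change of 1.97 (SE 0.56, edgeR adjusted p = 0.143), and Pdcd1 itself of 1.59 (SE 0.69, adjusted p = 0.359). All 15 checkpoint genes were positive, with a median of 0.98. At an unadjusted p under 0.05 there were 10, Cd200r1 (0.59) and Tnfrsf9 (1.09) among them, against 7.11% of all genes. Il12rb2, a chain of the interleukin-12 receptor that marks type 1 T cells, was called (1.88, SE 0.39, edgeR adjusted p = 0.0443) and was chosen after its values were seen.

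The target of the antibody and its pathway were not called. Ctla4 mRNA was at 0.354 to 1.42 CPM (median 1.14) without anti-CTLA-4 and at 0.266 to 7.19 CPM (median 1.44) with it, a log2 fold change of 0.95 (SE 0.40, edgeR adjusted p = 0.327). The antibody binds the protein, so this level is no check of the labels. Its competitor Cd28 had a log2 fold change of 1.30 (adjusted p = 0.239), Icos of 1.26 (adjusted p = 0.182), and the ligands Cd80 and Cd86 of 0.42 and 0.66 (adjusted p = 0.25 and 0.397), all from edgeR. Foxp3, the defining transcription factor of regulatory T cells, was at 1.56 and 2.27 CPM in control, 0.679 and 0.657 in APG-157, 1.38 and 2.22 in Anti-PD-1 and 2.58 and 2.70 in APG-157-plus-anti-PD-1. With anti-CTLA-4 it was at 0.840 and 0.550 CPM alone, 0.278 and 0.364 beside APG-157, 4.59 and 4.22 beside anti-PD-1 and 2.53 and 1.06 beside both. Of the 6 genes of the CTLA-4 and CD28 list, 5 were positive and at an unadjusted p under 0.05, against 7.11% of all genes. The list median was 0.81, with 0 called. The log2 fold change of Foxp3 was −0.53 (SE 0.35, edgeR adjusted p = 0.617), and it was −1.46, −1.05 and −0.56 with no other agent, APG-157 and both, but 1.29 beside anti-PD-1. The whole regulatory T cell list, 9 genes tested, had a median of 0.33, with 0 called and 1 at an unadjusted p under 0.05 and higher.

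Ratios of transcripts within a library depend little on its depth, but where levels are low the offset of 0.1 CPM and the few counts matter. The log2 ratio of Ctla4 to Foxp3 was 0.39 ± 0.87 with and −0.74 ± 0.26 without anti-CTLA-4 (SD, n = 8), a difference of 1.13 (exact permutation test within the settings, two-sided, p = 0.00617, adjusted p = 0.0247 over 4 ratios). The smallest p that these 1296 arrangements allow is 0.00154. Foxp3 was lowest in the libraries of APG-157-plus-anti-CTLA-4, whose log2 ratios of Ctla4 to Foxp3 were 1.89 (replicate A) and 1.04 (replicate B). The difference was positive in each setting, at 0.67, 2.17, 0.88 and 0.82, and largest beside APG-157. Without replicate A of Anti-CTLA-4 it was 0.92 and without replicate B of control 1.03, with an adjusted p of 0.0679 and 0.0864 in the exact permutation test. Without replicate B of Anti-CTLA-4 the differences of Cd8a to Foxp3 and of Cd8a to Cd4 were 2.31 and 1.38, with an adjusted p of 0.0144 and 0.00926 in the same test. The log2 ratio of Cd8a to Foxp3 was 3.43 ± 1.66 with and 1.70 ± 1.03 without (SD, n = 8; exact permutation test, adjusted p = 0.0802), and that of Cd8a to Cd4 was 1.74 ± 0.91 and 0.60 ± 1.22 (adjusted p = 0.0802). Foxp3 to Cd4 was at −1.69 ± 1.14 and −1.10 ± 0.78 (exact permutation test, adjusted p = 0.284). None of these 3 differences passed the test with all 16 libraries.

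**Figure D5:**
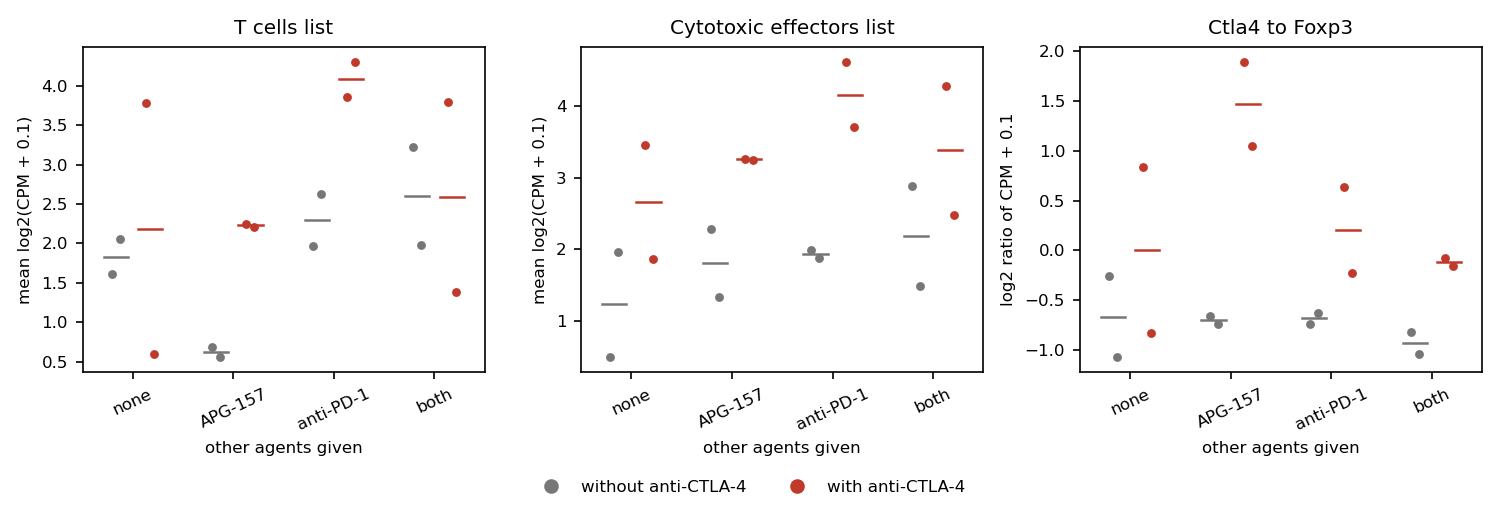
Mean log2(CPM + 0.1) of the T cell list and of the cytotoxic effector list, and the log2 ratio of Ctla4 to Foxp3 (y axes), in each of the 16 libraries by the other agents given (x axes), in grey without and in red with anti-CTLA-4; bars are means of 2 libraries. The 2 libraries of Anti-CTLA-4 lie at 3.78 and 0.59 in the T cell list, and the mean ratio of Ctla4 to Foxp3 is higher with anti-CTLA-4 in each setting.

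Lists of other cells showed a mixed pattern. Of 20 macrophage genes 15 were positive and 0 were called, with a median of 0.27. At an unadjusted p under 0.05, 9 of them were higher and 0 lower, against 7.11% and 5.39% of all genes. The members with the highest fold changes were Acod1 (2.90), which makes itaconate, Marco (2.81), Nos2 (2.71), the inducible nitric oxide synthase, Arg1 (2.54), arginase, and Mmp12 (2.47), with adjusted p between 0.056 and 0.123 from edgeR. The study had named Acod1 and Mmp12 from these libraries. The pan-macrophage markers Adgre1, Csf1r and C1qa had log2 fold changes of −0.06, −0.25 and 0.13. Of 12 neutrophil genes tested, the protease gene Mmp9 was called lower (−0.60) and 8 were positive (median 0.19), and the defining markers Ly6g, Retnlg, Camp and Elane had too few counts to be tested. Natural killer genes were positive in 8 of 8 (median 0.84, 0 called), 7 of them at an unadjusted p under 0.05. Dendritic cell genes were positive in 8 of 12 (median 0.38, 0 called), with 4 higher and 2 lower at that p. Chemokine and receptor genes were positive in 18 of 21 (median 0.58, 0 called), with 8 higher and 0 lower at that p.

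The B and plasma cell list had a median of −0.12 over 14 genes, the adipocyte list of −0.50 over 10, the keratinocyte list of −0.03 over 10, the epithelial-mesenchymal transition list of −0.09 over 13, the proliferation list of −0.01 over 20 and the mitochondrially encoded genes of −0.03 over 13, each with 0 called. All 18 hypoxia and glycolysis genes were positive (median 0.44, 0 called), with Aldoa at 0.44 (edgeR adjusted p = 0.077). Of the 18, 8 had an unadjusted p under 0.05, against 7.11% of all genes. Among 18 apoptosis and p53 genes the survival gene Bcl2l1 was called higher (0.37, edgeR adjusted p = 0.0365), with no overlap between the arms, at 48.6 to 62.1 against 62.6 to 87.8 CPM, and the list median was 0.07. The skeletal muscle genes had a median log2 fold change of 1.60 over 24 genes with 0 called. Their level varied from −1.49 to 7.61 without and from −1.56 to 7.89 with anti-CTLA-4, and the median library was lower with it (0.37) than without (1.70), against the sign of the fold changes. With the muscle level as a covariate, 89 genes were called higher and 76 lower.

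Within single settings, calls were made beside APG-157 only: 7 genes higher (0.0368%) and 12 lower (0.0631%), together 0.0999% of genes tested, while 0 were called with no other agent, beside anti-PD-1 and beside both by edgeR. At an unadjusted p under 0.05 the settings held 1642 (8.63%), 2243 (11.8%), 1040 (5.47%) and 456 (2.4%) genes in the order none, APG-157, anti-PD-1 and both, and DESeq2 called 60, 580, 96 and 9. The comparison beside APG-157 contains the closely matched pair, and its 19 calls went to 0 with that pair summed as 1 sample and to 5 when the letter A or B was a block. The lowest p were those of Ntng1 (−2.64), a membrane-bound netrin, Cd200 (−1.50), a ligand that restrains myeloid cells, Mylk (−1.24), myosin light chain kinase, Fam198b (−1.44) and Tnfsf11 (−2.05), which encodes RANKL. In the other settings these genes had log2 fold changes between −1.41 and 0.18. The calls held the matrix genes Col6a2 (−2.41), Aspn (−3.12) and Ecm2 (−1.64), and Csdc2, Ecm2 and Cavin2 were also called in the main effect.

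That calls appeared in a single setting does not show a difference between settings, which was tested directly. The difference of the anti-CTLA-4 effect with and without APG-157 gave 0 called genes by edgeR (720, or 3.79%, at an unadjusted p under 0.05, 6 called by DESeq2), and that with and without anti-PD-1 gave 0 (634, or 3.33%, at an unadjusted p under 0.05, 11 called by DESeq2). Of the 71 higher genes 2 and 4, and of the 45 lower genes 0 and 8, were at an unadjusted p under 0.05 in these differences. By the rule for named genes, the lowest p for APG-157 after Gm43802, which was at 0 in both Anti-CTLA-4 libraries, were those of Gm5526 (−2.23), Phex (0.99), Gpr149 (0.70) and Gm2396 (2.60), and for anti-PD-1 those of Cd200 (0.96), Rrp12 (−0.68), Gdf5 (2.40), Capn6 (1.30) and Mid1ip1 (−0.48). These are differences of log2 fold changes, and none passed the adjusted threshold in edgeR.

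For the other agents, over the 71 higher genes the median log2 fold change was 0.10 for anti-PD-1 and 0.04 for APG-157, and over the 45 lower genes it was −0.01 and −0.05. In the same model the anti-PD-1 and APG-157 main effects had 0 called genes each by edgeR (2104, or 11.1%, and 1375, or 7.23%, at an unadjusted p under 0.05). Calls by DESeq2 for these main effects are not reported here, so its counts for anti-CTLA-4 have no counterpart. The direct test of anti-CTLA-4 minus anti-PD-1 gave 0 called genes (1750, or 9.2%, at an unadjusted p under 0.05, 264 called by DESeq2), and that of anti-CTLA-4 minus APG-157 also gave 0 (1829, or 9.62%, at an unadjusted p under 0.05, 116 called by DESeq2). Of the 71 higher genes 65 and 69, and of the 45 lower genes 41 and 40, were at an unadjusted p under 0.05 in these differences, but the genes had been called for their anti-CTLA-4 effect, which is part of both. Fosb had the lowest p in each, with differences of 1.34 (SE 0.19, edgeR adjusted p = 0.0808) and 1.19 (SE 0.19, edgeR adjusted p = 0.187). It was followed by Rgs17 (0.67), Gprc5a (0.70), Pcdh12 (−1.18) and Wwc1 (0.85) against anti-PD-1, and by Wwc1 (0.89), Sertad4 (−0.54), Gm15056 and Pcdh18 (−0.50) against APG-157. Gm15056 was at 0 to 0.107 CPM without and 0.0177 to 4.08 CPM with anti-CTLA-4.

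Promoter sequences of the named and called genes were searched for 2 motifs known from interferon-responsive genes. RefSeq promoters (GRCm38.p6) were matched for 25 of 40 genes, 37 start sites in all, and the 250 bases before each start were read on both strands. The GAS motif TTCNNNGAA was found at 2 of 37 start sites (5.41%), of Lilr4b and Slco2b1, against 7.02% of all 32851 promoters, and the ISRE motif (TTTC, any 2 bases, TTTC) at 1 (2.70%), of Ptgs2os2, against 2.98%. Both shares were close to those of all promoters, but they rest on few matches. Several start sites can belong to the same gene, as the 8 of Slc29a1 do. By gene, GAS was found in 2 and ISRE in 1 of the 25. The windows of the higher genes are shown 5′ to 3′ on the strand of the gene, with the motif in capitals, at chr10:51480483-51480541 (plus strand) for Lilr4b, where the motif starts 104 bases before the start site, and at chr1:150164987-150165046 (minus strand) for Ptgs2os2, where it starts 73 bases before. A match is a match of letters and no evidence of binding.
Lilr4b: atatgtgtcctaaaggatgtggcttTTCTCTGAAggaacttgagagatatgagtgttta
Ptgs2os2: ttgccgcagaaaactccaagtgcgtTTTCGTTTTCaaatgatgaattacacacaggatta

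The libraries with anti-CD8 allow a limited look at the same genes when CD8 T cells were depleted. Tumors given anti-CD8 with APG-157 and anti-CTLA-4 were set against tumors given anti-CD8 alone, 2 libraries each, in which anti-CTLA-4 and APG-157 cannot be told apart. Replicate B of the combination carried much adipose RNA, with an adipocyte list level of 8.34 against −1.07 to 0.81 in the other 3 libraries. Of the 71 higher genes, 38 (53.5%) had a positive log2 difference, against 53.6% of all genes tested, and of the 45 lower genes 27 (60.0%) had a negative one, against 46.3%. With replicate A only, the counts were 37 and 19, or 52.1% and 42.2%, against 52.3% and 47.5% of all genes. With replicate B only, the library with much adipose RNA among them, the counts were 41 and 30, or 57.7% and 66.7%, against 51.6% and 48.2% of all genes. The replicates thus differed, and the values are given with no test.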

How the data were processed

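Tumor RNA was sequenced in 20 libraries, and 16 of 8 groups entered the comparison. Each value used is an expected count per gene that the authors deposited. Per the study's methods and the submitters' processing notes, reads were checked with FastQC, trimmed with Trimmomatic and quantified with Salmon against the mouse GRCm39 annotation, and transcript estimates were summed per gene. The notes name Trimmomatic 0.39 and Salmon 1.5.0, and the methods give a later patch of Salmon. Of the values 71.5% were whole numbers. Salmon shares reads among similar transcripts by probability, so near-identical genes are uncertain. A further deposited table of log2 values was not used here.

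Expected counts were rounded, and genes were kept by filterByExpr of edgeR with a minimum count of 10 and a minimum total of 15 in the 8 groups. This kept 19020 of 54309 genes, which were scaled by TMM. The main effect came from edgeR's quasi-likelihood test (edgeR 4.0.16, R 4.3.3) with a term for each of the 3 agents (12 residual degrees of freedom, common biological coefficient of variation 35.6%). Settings and their differences came from a model of 8 group means (8 residual degrees of freedom, 33.1%). Calls used Benjamini-Hochberg adjustment over every gene tested, a threshold of 0.05 and no minimum fold. The standard error is the size of the unshrunken log2 coefficient divided by the square root of F. The printed log2 fold changes are edgeR's own, slightly shrunken by a prior count. CPM used TMM-scaled library sizes, and levels of lists used log2(CPM + 0.1). Ratios of transcripts were compared with an exact two-sided permutation test within settings. With 8 libraries per arm the depth of 43.9 to 70.1 M counts (M, 1e+06) leaves genes under 1 CPM resting on few counts.

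Genes named by rule were Ctla4, Cd28, Cd80, Cd86, Icos, Foxp3, Pdcd1 and Cd274, the 15 higher and 15 lower genes of lowest p, the 3 members of lowest p and the member of highest level in each of 28 gene lists, the 5 genes of lowest p in each difference, and up to 5 genes of lowest p called in a single setting. The members and lists were chosen with earlier results of these data known. Alternatives were DESeq2 1.42.0, median-ratio factors, other filters, a replicate block, a muscle covariate, summed or left-out libraries and left-out settings. The scripts were tested on simulated data. Some items are not reported here.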

Additional observations from a re-analysis of the deposited data

Results flagged for a closer look

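In 21 of 306 checks of a gene or ratio within an arm of 8 libraries, 1 library stood apart from the other 7 by Dixon's 95% criterion on the log2(CPM + 0.1) scale. Chance flags about 1 in 20 groups, so a number near this is given by chance alone. Values are CPM unless stated, with the nearest other library of the arm after each.

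Among genes called higher, Fosb was at 9.42 in replicate B of Anti-CTLA-4 (nearest 6.70), Lilr4b at 52.2 in replicate A of control (nearest 62.8), and Crem at 10.3 in replicate A of APG-157-plus-anti-PD-1 (nearest 9.07). Clec4e at 8.73 (nearest 19.0) and Lilrb4a at 94.7 (nearest 132) were low in replicate A of Anti-CTLA-4, and Dusp10 at 14.0 (nearest 21.0) was low in replicate B of the same group. Pdcd1lg2 was at 0.0337 in replicate B of APG-157 (nearest 0.25), and Pdpn at 313 in replicate A of APG-157 (nearest 232). Among genes called lower, Sertad4 was at 85.2 in replicate B of the triple combination (nearest 70.4) and Col5a2 at 400 in replicate B of control (nearest 497).

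Among genes that were not called, the neutrophil protease gene Mmp8 at 1.63 (nearest 0.346) and the neutrophil chemokine genes Cxcl2 at 7.14 (nearest 0.986) and Cxcl1 at 4.62 (nearest 2.23) were all high in replicate A of Anti-PD-1-plus-anti-CTLA-4. Trem1, a receptor of neutrophils and monocytes, was at 4.97 in replicate A of APG-157 (nearest 2.25). The chemokine gene Ccl4 at 7.99 (nearest 2.88), the death receptor gene Fas at 11.3 (nearest 7.88) and the muscle gene Myoz1 at 33.7 (nearest 1.44) were high in replicate A of APG-157-plus-anti-PD-1. The integrin gene Itgax was at 6.29 (nearest 10.1), mt-Nd5 at 2960 (nearest 2120) and the log2 ratio of Cd8a to Cd4 at −2.30 (nearest 0.34) in replicate B of APG-157. Jun was at 257 in replicate B of Anti-CTLA-4 (nearest 205).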

How the results depend on the processing

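None of the 116 called genes changed sign under any alternative that gave it a value (31 for each gene, or 30 for Ido1, Fam71b, Ccl1, Galnt9, Tarm1, Gm15056 and A330023F24Rik), whereas the number of calls moved widely. Of the main effect, 28 higher and 4 lower genes had a log2 fold change over 1 and 5 and 2 over 2. DESeq2 called 442 and 281, a mean of at least 1 CPM gave 87 and 68, the muscle covariate 89 and 76, and all 20 libraries 12 and 4. Summing the APG-157-plus-anti-CTLA-4 libraries gave 18 and 4. Without the setting of no other agent 15 and 2 were called, and 0 and 0 without the APG-157 setting or without the anti-PD-1 setting. Leaving out 1 library gave 3 to 292 higher and 0 to 142 lower genes. With the replicate letter as a block 70 and 41 genes were called, 58 and 39 of them shared. For each gene, the log2 difference of replicate A minus replicate B was taken within each of the 8 groups. Correlations of these differences between the 28 pairs of groups ran from −0.30 to 0.71, 8 of them over 0.1. Their median was −0.0062. In the main fit the letters were not taken to pair libraries, a choice that these correlations do not settle. The sample numbers run through all A libraries before all B libraries, and what this order stands for is not told. Beside APG-157 the 19 calls became 7 at a log2 fold change over 2, 1325 with no filter, 43 with a mean of at least 1 CPM, 580 by DESeq2, 0 with all 20 libraries or the summed pair, 5 with the block and 0 to 138 without 1 library. With no filter 784 genes were called beside no other agent, 904 beside anti-PD-1, 280 beside both, 325 and 331 in the differences by APG-157 and anti-PD-1 and 8 in anti-CTLA-4 minus anti-PD-1. DESeq2 called 60, 96, 9, 6, 11 and 264 in the same order, and 116 in anti-CTLA-4 minus APG-157. The muscle covariate gave 1 call beside no other agent, in the difference by APG-157 and in anti-CTLA-4 minus anti-PD-1. Without 1 library these comparisons gave 0 to 1, 0 to 1, 0 to 2, 0 to 1, 0 to 2, 0 to 13 and 0 to 0 calls. The log2 ratio of Ctla4 to Foxp3 differed by 0.92 to 1.34, that of Cd8a to Foxp3 by 1.15 to 2.31, that of Cd8a to Cd4 by 0.81 to 1.47 and that of Foxp3 to Cd4 by −0.93 to −0.24 without 1 library. Uncalled genes that changed sign were Retn (0.58), Plin1 (0.23) and Fabp4 (0.44) with all 20 libraries, Acta1 with the muscle covariate (−0.37) and with group means (−0.32), and, without 1 setting, Myh4 (−0.0833), Acta1 (−1.68 and −0.72), S100a4 (0.0557), Vcam1 (−0.0120), Mki67 (0.126 and 0.0123) and mt-Co1 (−0.0394 and −0.0258). Without 1 library the ranges of those that changed sign were −1.96 to 3.66 for Acta1, −0.00648 to 2.98 for Myoz1, −0.0727 to 0.0380 for Mki67, −0.0901 to 0.0126 for S100a4, −0.00512 to 0.101 for Xbp1 and −0.0542 to 0.0721 for mt-Co1. The cause of these changes was not tested.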
